A study of Oncorhynchus mykiss with 6 samples.

Results

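The let-7 microRNAs and the families that share ancient gene clusters with them, miR-99, miR-100 and miR-125, were described in the head kidney of rainbow trout (Oncorhynchus mykiss) at 18 °C and 24 °C. The members were all rows of the deposited miRNA table whose Atlantic salmon (ssa) name is that of let-7, miR-98, miR-99, miR-100 or miR-125, with any letter, copy number or arm. This gave 30 of 1381 rows. They comprised 20 let-7 rows, 5 rows of miR-99 or miR-100 and 5 rows of miR-125, and no row was named miR-98. The samples were 6 small RNA libraries, 1 per fish, from the head kidneys of females aged 1 year. A control group of 3 fish was held at 18 °C and a heat-treated group of 3 fish at 24 °C. The sources used here give neither how long the heat lasted nor the strain of the fish. The comparison addresses which microRNAs of this blood-forming and immune organ differ under heat.

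MicroRNAs are short RNAs, cut from a hairpin precursor, that guide repression of matching mRNAs. Each hairpin can give a product from its 5′ arm (5p) and its 3′ arm (3p), and usually one of them is kept while the other is degraded. let-7 and lin-4, whose vertebrate counterpart is miR-125, were first found in the nematode Caenorhabditis elegans as timers of larval development. In mammals let-7 is low in early embryonic cells, where the protein Lin28 blocks its maturation, and high in differentiated tissue, and the balance of Lin28 and let-7 separates fetal from adult blood formation. miR-99 and miR-100 are close relatives of miR-10. In many animals a miR-100 or miR-99 gene, a let-7 gene and a miR-125 gene lie side by side and can be made from a shared transcript. Mammalian miR-125b acts on blood stem cells. The letters in the salmon names need not map onto the letters of mammalian family members. The table holds names only, so neither sequences nor positions are given.

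Library totals ran from 3753036 to 5156793 counts, and 3 counts were worth 0.579 to 0.807 CPM (counts set to a common library total, here scaled between libraries with the TMM method of edgeR). The families known from blood cells were present, with miR-142 at 13282 CPM, miR-181 at 44328 CPM and miR-144 at 1132 CPM (means of summed rows over 6 libraries), while miR-223 and miR-451 had no row of that name. The summed level of the 18 blood and immune rows was 50771 to 70474 CPM at 18 °C and 57049 to 65755 CPM at 24 °C. The 11 rows of striated muscle families summed to 411 to 725 CPM at 18 °C and 1137 to 2326 CPM at 24 °C, so that the groups were apart in this sum. Most of it came from miR-499 (mean 699 CPM) and miR-1 (343 CPM), beside miR-206 (39.2 CPM) and miR-133 (24.5 CPM). Among all tested rows of the table, taken singly, 6.89% had every heat library above every control library. That share is not a background for a sum of several rows. The 22 rows of epithelium and kidney tubule summed to 2947 to 3428 CPM at 18 °C and 2176 to 2952 CPM at 24 °C, a narrow overlap. The gonad family miR-202 summed to 12.2 to 87.6 CPM at 18 °C and 2.51 to 20.0 CPM at 24 °C. The sums of the endothelium, liver, and neural and endocrine families overlapped as well. In whole organs fewer cells of a type and less RNA per cell cannot be told apart.

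The 30 rows made up a large part of the counts in the deposited miRNA table, which holds no other class of small RNA. They took 16.8%, 17.3% and 15.8% of all counts in the 3 control libraries and 16.3%, 15.1% and 18.1% in the 3 heat libraries. The groups overlapped, with means (SD, n = 3 each) of 16.6% ± 0.809 for the control fish and 16.5% ± 1.52 for the heat fish. Exact binomial 95% intervals of these shares were no wider than 0.0383 percentage points to either side and cover counting error only. let-7 was the largest of the groups, at 10.1%, 9.35% and 8.48% of counts in the control libraries and 8.37%, 9.01% and 10.1% in the heat libraries. miR-99 with miR-100 took 6.46%, 7.60% and 6.93% at 18 °C and 7.54%, 5.75% and 7.62% at 24 °C. miR-125 was far scarcer, at 0.276%, 0.387% and 0.344% in the control libraries and 0.432%, 0.311% and 0.371% in the heat libraries. In all 3 groups the libraries of both temperatures overlapped. The differences of the means, 24 °C minus 18 °C, were -0.148 percentage points for let-7, -0.0253 for miR-99 with miR-100 and 0.0358 for miR-125, each smaller than the SD between fish. No p-value is given for these sums, since the members were chosen with earlier results of these data known.

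Within let-7 a pair of rows dominated. let-7e-5p held 44.9% to 50.6% of the let-7 counts in single libraries and let-7a-5p 29.1% to 33.4%. let-7i-5p followed with 7.39% to 10.7% and let-7g-5p with 6.09% to 8.30%, while let-7b-5p, let-7h-5p, let-7c-5p and let-7d-5p each stayed under let-7g-5p in every library. The order of the first 2 rows was the same in all 6 fish, while let-7i-5p and let-7g-5p changed places in control replicate 3. Mature let-7 forms are nearly identical, so reads may be split or shared between these rows in the authors' counting, which is not described in the sources used here.

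**Figure D1:**
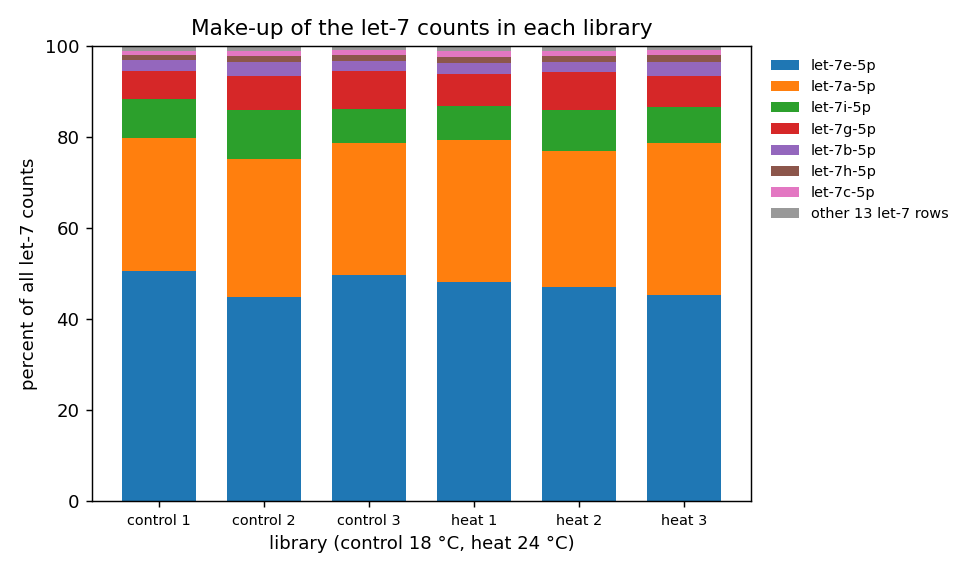
Percent of all let-7 counts (y axis) taken by each of the 7 most abundant let-7 rows and by the other 13 rows together, in each of the 6 libraries (x axis). In every library let-7e-5p is the largest block (44.9% to 50.6%) and let-7a-5p the next (29.1% to 33.4%).

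let-7e-5p stood at 50734, 42395 and 41783 CPM in the control fish and at 40167, 45002 and 43565 CPM in the heat fish. One control library was the highest and the other values lay close together, so the groups overlapped (log2 fold change, 24 °C over 18 °C, -0.07, 95% interval -0.37 to 0.24). let-7a-5p had 29299.5, 28541 and 24510 CPM in the control libraries, against 25966, 28598.5 and 32145 CPM in the heat libraries, again with overlap, the highest value being that of heat replicate 3. let-7i-5p had 8659.6, 10109.8 and 6287 CPM in the control libraries, against 6153, 8646 and 7645 CPM in the heat libraries. Its lowest libraries, control replicate 3 and heat replicate 1, came from both groups. The less abundant let-7b-5p had 2552, 2741 and 1817 CPM at 18 °C, against 2049.7, 2077 and 3059 CPM at 24 °C, with control replicate 3 lowest and heat replicate 3 highest. let-7g-5p had 6107, 7189 and 6991 CPM in the control fish and 5837, 7866 and 6423 CPM in the heat fish. let-7h-5p had 1081, 1372 and 1141 CPM, against 1114, 1235 and 1385 CPM under heat. let-7c-5p had 903.6, 1077 and 866.9 CPM, against 994.8, 1158 and 1039 CPM under heat, and let-7d-5p lay between 441 and 620.5 CPM in single libraries. For each of these 4 rows the libraries of both temperatures overlapped.

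**Figure D2:**
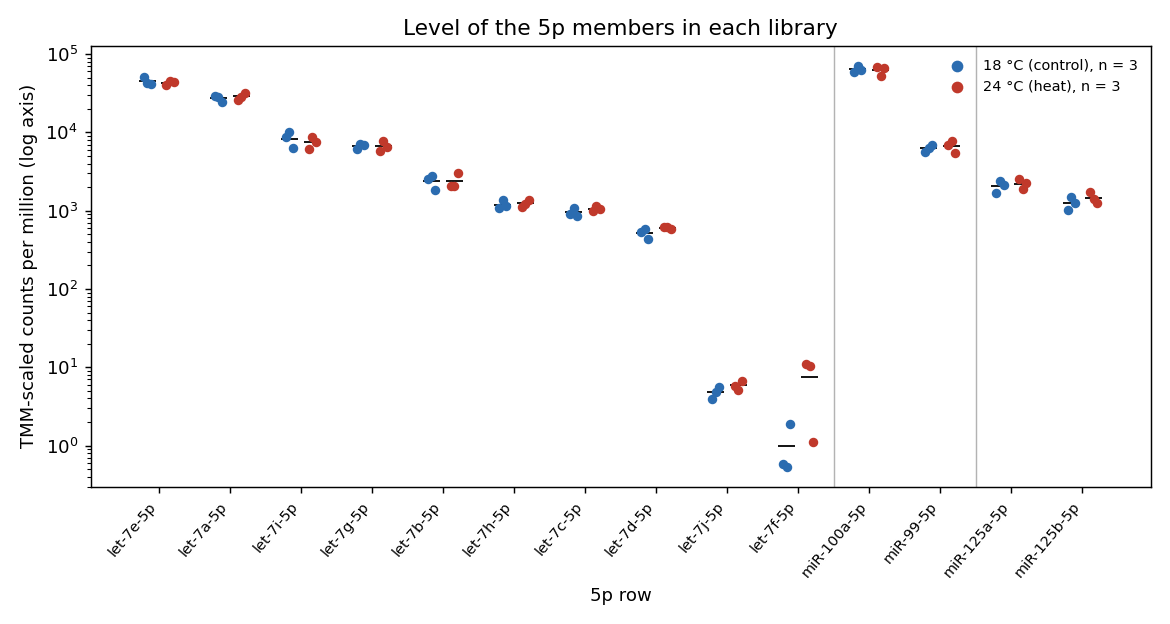
TMM-scaled CPM (y axis, log scale) of the 14 member rows of the 5p arm (x axis), with a point for each library, blue at 18 °C and red at 24 °C, and a bar for each group mean (n = 3). Points of both temperatures overlap for every row shown, and let-7f-5p has 2 heat libraries at 10.4 and 11.2 CPM against 0.538 to 1.88 CPM in the other 4.

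miR-100a-5p was the most abundant of the 30 rows and ranked 4 among all 1381, at 58559, 70460.1 and 61808 CPM in the control fish and 68128, 53223 and 67012 CPM in the heat fish. Heat replicate 2 was the lowest of the 6 and control replicate 2 the highest. It took 87.2% to 92.5% of the counts of its group. miR-99-5p took most of the rest, at 5589, 6293 and 6934 CPM at 18 °C and 6915, 7831 and 5401 CPM at 24 °C. Its extremes did not match those of miR-100a-5p: heat replicate 2 held the most miR-99-5p and heat replicate 3 the least. The ratio of miR-100a-5p to miR-99-5p counts was therefore 6.796 in heat replicate 2 and 12.4 in heat replicate 3, with the 3 control libraries between 8.91 and 11.2. The heat fish spanned a wider range than the control fish (9.69 ± 2.81 against 10.2 ± 1.17, SD, n = 3 each).

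Both miR-125 rows of the 5p arm were of moderate abundance. miR-125a-5p had 1684, 2363 and 2146 CPM in the control libraries and 2549.6, 1869 and 2231 CPM in the heat libraries. miR-125b-5p had 1029, 1502 and 1248 CPM at 18 °C, against 1728, 1404 and 1270.5 CPM at 24 °C. For both rows control replicate 1 was the lowest and heat replicate 1 the highest of the 6 libraries, and the groups overlapped. The ratio of miR-125a-5p to miR-125b-5p counts lay between 1.33 and 1.76.

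No member passed the test between the temperatures, and the abundant ones were measured tightly. Of the 30 rows, 26 had enough counts to be tested. edgeR called 0 of them higher and 0 lower at 24 °C at an adjusted p under 0.05, as did DESeq2 and limma-voom. Among all 537 rows tested, 0.186% were called higher and 0% lower. At an unadjusted p under 0.05 there was 1 member, let-7b-3p, among 26 tested, against 6.52% of all tested rows. The heat libraries lay wholly below the control libraries for 1 member, again let-7b-3p, against 5.96% of all tested rows, and wholly above them for 0 members, against 6.89%. The median log2 fold change was -0.01 over the 26 members and 0.002 over all 537 rows. For all 11 members with a mean of at least 1000 CPM the 95% interval of the fold change lay within 2-fold either way, and the same held for 65 of all 74 rows of that abundance. For 10 of the 26 members, and 51 of the 537 rows, it lay within 1.5-fold. The coefficient of variation over the 6 fish was 8.44% to 20.0% for these 11 members, with a median of 11.2%, against a median of 15.9% over the 74 rows.

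**Figure D3:**
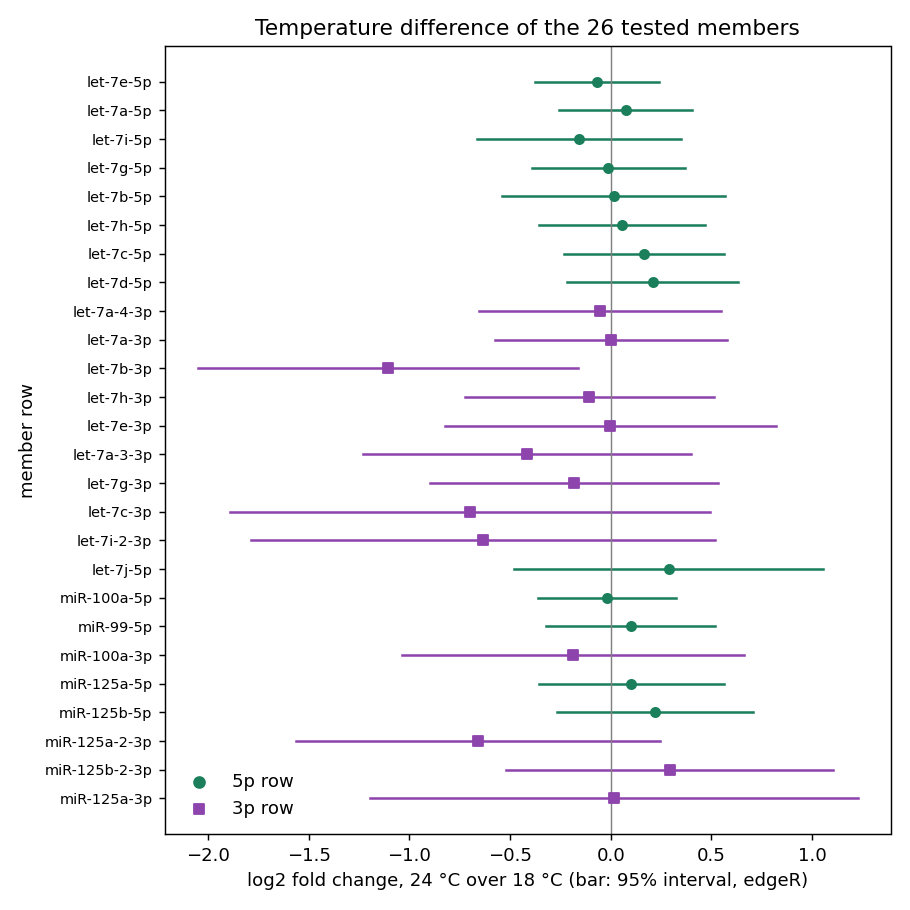
Log2 fold change of each of the 26 tested members, 24 °C over 18 °C (x axis), with its 95% interval from edgeR, for 5p rows (green circles) and 3p rows (purple squares). The estimates of the 5p rows lie between -0.16 and 0.29, and let-7b-3p at -1.11 is the 1 row whose interval does not include 0.

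The estimates differed somewhat in sign between the arms. Of 13 tested 5p rows, 9 had a positive estimate, with a median of 0.07 and a range from -0.16 for let-7i-5p to 0.29 for let-7j-5p. Of 13 tested 3p rows, 10 had a negative estimate, with a median of -0.18 and a range from -1.11 for let-7b-3p to 0.29 for miR-125b-2-3p. Over all tested annotated rows, 73 of the 137 rows of the 5p arm were positive (median 0.02). Of the 146 rows of the 3p arm, 70 were negative (median 0.02). All these rows come from the same 6 libraries, so the signs are not independent of each other. Together the 16 member rows of the 3p arm took 0.0506%, 0.0430% and 0.0404% of counts in the control libraries and 0.0381%, 0.0396% and 0.0395% in the heat libraries. As shares of library totals, each heat library was lower than each control library in this sum. Its 95% binomial intervals reach up to 0.00215 percentage points to either side, which is more than the gap between the groups. On the TMM scale used for the row levels the groups overlapped. There heat replicate 2, which had the lowest TMM factor (0.942), lay above control replicate 3 in the sum. Of the 13 tested 3p rows in the sum, let-7b-3p was the 1 whose groups did not overlap by itself on that scale. No test was made of the sum or of the difference between arms.

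let-7b-3p, the passenger arm of let-7b, had the smallest p of the 26 tested members. It was counted 257, 199 and 166 times in the control libraries and 72, 77 and 146 times in the heat libraries, which is 50.4, 53.5 and 34.7 CPM against 13.9, 18.1 and 32.4 CPM. Every heat library lay below every control library, with a narrow gap between control replicate 3 and heat replicate 3. This gave an estimated log2 fold change of -1.11 ± 0.40 (SE), with a 95% interval from -2.05 to -0.16 and an edgeR adjusted p of 0.63. Without heat replicate 3 the estimate was -1.57 and without heat replicate 1 it was -0.87.

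The next smallest p-values also belonged to 3p rows of low abundance. miR-125a-2-3p had 14.9, 24.8 and 11.7 CPM at 18 °C, against 10.2, 12.7 and 9.53 CPM at 24 °C (log2 fold change -0.66 ± 0.38, SE). let-7c-3p had 9.81, 21.0 and 5.65 CPM at 18 °C, against 8.10, 8.23 and 5.99 CPM at 24 °C (-0.70 ± 0.51). For both, control replicate 2 alone was high, and the groups overlapped. Without that library the log2 fold change was -0.37 for miR-125a-2-3p and -0.13 for let-7c-3p, and without control replicate 3 that of let-7c-3p was -1.05. let-7i-2-3p had 10.8, 5.38 and 7.74 CPM at 18 °C, against 3.47, 8.71 and 3.33 CPM at 24 °C. let-7a-3-3p had 17.5, 25.8 and 16.1 CPM at 18 °C, against 15.4, 11.5 and 17.5 CPM at 24 °C. For let-7i-2-3p the log2 fold change ran from -1.25 without heat replicate 2 to -0.36 without control replicate 1, and for let-7a-3-3p from -0.59 without heat replicate 3 to -0.25 without control replicate 2. In edgeR these 4 rows had adjusted p-values from 0.69 to 0.83.

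The 5p arm was the main product of every member hairpin that had a 3p row. The 5p rows held 99.7% of the member counts and the 3p rows 0.254%. In the summed counts of all 6 libraries, with every numbered 3p copy included, the 3p share was 2.62% for let-7h, 1.39% for let-7b, 1.09% for let-7c and 0.928% for let-7a. It was lower for miR-125a (0.789%), miR-125b (0.650%), let-7g (0.172%), let-7i (0.0846%) and let-7e (0.0551%). miR-100a had a 3p share of 0.0169%, and miR-99-3p was counted once in control replicate 1, once in heat replicate 3 and in no other library, beside 178523 counts of miR-99-5p. The most abundant rows of the let-7 and miR-99 with miR-100 groups, let-7e and miR-100a, were thus also among the most one-sided. let-7d, let-7f and let-7j had no 3p row. Several 3p rows carry a copy number while the matching 5p arm has 1 row; as background, copies of a hairpin can share a 5p arm and differ in the 3p arm. Of the let-7a 3p counts, let-7a-4-3p held 55.4% to 71.0% in single libraries, let-7a-3p 22.7% to 33.8% and let-7a-3-3p 4.26% to 10.8%. This order was the same in all 6 fish.

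To compare the balance of the arms between temperatures, 5p counts were divided by 3p counts in each library and put on the log2 scale. Arms were paired where the 5p and the 3p row carried the same name, so a 3p row with a copy number entered no ratio, and these ratios are not those of the shares above. Of 79 hairpins paired in this way with both arms at a mean of at least 10 counts, 8 were members. let-7i and miR-125b, whose 3p row carries a copy number, and miR-99, whose 3p row was too rare, were not among them. All 8 had more 5p than 3p, as did 51 of the 79, and their mean log2 ratios ran from 5.23 (let-7h) to 12.8 (miR-100a), against a median of 2.90 over all 79. The ratio of miR-100a was the highest of the 79. let-7b had log2 ratios of 5.66, 5.67 and 5.71 in the control libraries and 7.20, 6.83 and 6.56 in the heat libraries. The control values lay close together and every heat value lay above them. The difference was 1.18 ± 0.25 (SE; 95% interval 0.60 to 1.77; limma adjusted p = 0.067), which did not pass. This let-7b difference was known from an earlier analysis of the same libraries before the arm test was planned. Its p-values here are therefore no independent test of it. Over all 79 hairpins 0% passed, 8.86% had an unadjusted p under 0.05 and 11.4% had groups that did not overlap. When hairpins needed a mean of 50 counts per arm, 53 were tested, 3.77% passed, and let-7b was among them (limma adjusted p = 0.019). With each library left out in turn the difference stayed between 1.02 and 1.33 (limma adjusted p from 0.10 to 0.44). let-7b-5p by itself had overlapping groups and a log2 fold change of 0.02 ± 0.24 (SE). In an alternative chosen after seeing the data, the rows of all numbered copies were summed within each arm, which gave 91 hairpins, 10 of them members. let-7b has no numbered copy and kept its ratios, but with more hairpins in the fit its limma adjusted p was 0.036, and 3.3% of the 91 passed. The call of let-7b thus changed with the set of hairpins in the fit while its ratios stayed the same. It passed in 2 of the 11 arm fits made, this one and that at 50 counts. Among the fits that did not call it, those without a library and that with a replicate block differ from the main fit in other ways. The summed level of the muscle rows was also apart between the temperatures, as given above. Its part in the let-7b difference was not tested.

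**Figure D4:**
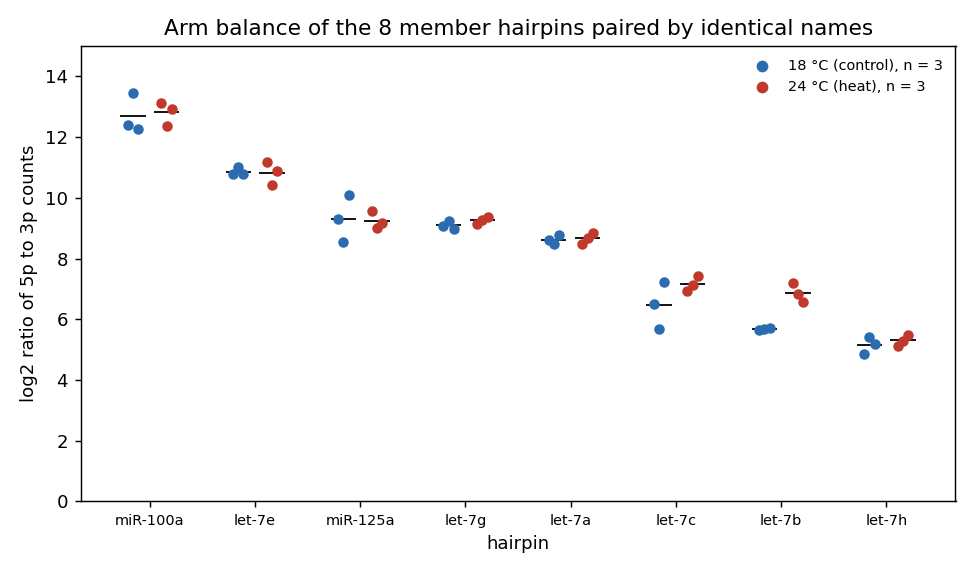
Log2 of 5p over 3p counts (y axis) for the 8 member hairpins tested, those with a 5p row and a 3p row of the same name (x axis), with a point for each library, blue at 18 °C and red at 24 °C, and a bar for each group mean (n = 3). Only for let-7b do the heat points (6.56 to 7.20) lie wholly above the control points (5.66 to 5.71).

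In the other 7 member hairpins the ratios of both temperatures overlapped. let-7c had 6.51, 5.67 and 7.24 at 18 °C and 6.92, 7.12 and 7.41 at 24 °C, a difference of 0.68 (95% interval -0.23 to 1.59; limma adjusted p = 0.66). The low value was that of control replicate 2, which held the most let-7c-3p. Without that library the difference was 0.28, and without control replicate 3 it was 1.06. let-7e had 10.8, 11.0 and 10.8 at 18 °C and 11.2, 10.4 and 10.9 at 24 °C. miR-100a had 12.4, 13.4 and 12.3 at 18 °C and 13.1, 12.4 and 12.9 at 24 °C, a difference of 0.11 (95% interval -0.75 to 0.97). This difference was 0.48 without control replicate 2 and below 0 without control replicate 1, control replicate 3 or heat replicate 1. let-7a had 8.62, 8.46 and 8.76 at 18 °C, against 8.49, 8.68 and 8.85 under heat. let-7g had 9.08, 9.23 and 8.97 at 18 °C, against 9.14, 9.26 and 9.38 under heat. let-7h had 4.85, 5.42 and 5.18 at 18 °C, against 5.13, 5.29 and 5.50 under heat. miR-125a had 9.31, 8.55 and 10.1 at 18 °C, against 9.56, 9.002 and 9.17 under heat, with both extremes among the control fish. The differences of let-7a (0.06), let-7g (0.17), let-7h (0.16), let-7e (-0.03) and miR-125a (-0.07) were small beside their intervals, and the limma adjusted p of let-7a, let-7e, let-7g, let-7h, miR-100a and miR-125a was 0.96.

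The 3p rows behind these ratios were rare. let-7a-3p had 74.2, 80.7 and 56.3 CPM in the control fish and 72.3, 69.6 and 69.4 CPM in the heat fish. let-7h-3p had 37.5, 32.02 and 31.4 CPM in the control fish and 31.6, 31.5 and 30.6 CPM in the heat fish, the most even of the 3p rows given here. let-7e-3p had 28.6, 20.4 and 23.8 CPM, against 17.4, 32.7 and 22.8 CPM under heat, where both extremes were heat fish. let-7g-3p had 11.2, 11.8 and 13.8 CPM, against 10.2, 12.7 and 9.53 CPM under heat. miR-100a-3p had 10.8, 6.19 and 12.3 CPM, against 7.52, 9.88 and 8.42 CPM under heat. miR-125a-3p had 2.55, 6.19 and 1.88 CPM, against 3.28, 3.53 and 3.77 CPM under heat. In each of these 6 rows the groups overlapped. With copies summed, as in the alternative above, let-7a had a mean log2 ratio of 6.75 and a difference of 0.13 (limma adjusted p = 0.92). miR-125a had a mean log2 ratio of 6.98 and a difference of 0.55 (limma adjusted p = 0.59), where the unnumbered row gave -0.07. let-7i had log2 ratios of 9.64, 10.8 and 9.65 at 18 °C, against 10.8, 9.94 and 11.1 under heat, a difference of 0.56 (95% interval -0.38 to 1.501; limma adjusted p = 0.73). miR-125b had 6.95, 7.14 and 7.81 at 18 °C, against 7.36, 7.28 and 6.95 under heat, a difference of -0.11 (95% interval -0.77 to 0.55; limma adjusted p = 0.92). In these 4 hairpins the groups overlapped.

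The 4 members left out by the filter on low counts were let-7f-5p, let-7c-2-3p, miR-100a-2-3p and miR-99-3p. let-7f-5p stands out among them and was chosen for description after its values were seen. It was counted 3, 2 and 9 times in the control libraries and 58, 44 and 5 times in the heat libraries, or 0.589, 0.538 and 1.88 CPM against 11.2, 10.4 and 1.11 CPM. A pair of heat libraries was high, while heat replicate 3 lay within the control values, so the groups overlapped. With no filter on low counts the log2 fold change was 2.82 ± 0.86 (SE). Its edgeR p was 0.0092 unadjusted and 0.79 adjusted. The related let-7j-5p, counted 18 to 30 times per library, showed no such split. let-7c-2-3p was counted 1 to 13 times and miR-100a-2-3p 4 to 12 times per library.

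The lead rows of the 3 groups did not all vary in the same direction across the fish. Correlations were taken over the 6 libraries on log2 TMM-scaled CPM for the most abundant row of each group, with exact permutation p-values adjusted over the 3 pairs. let-7e-5p and miR-125a-5p ran in opposite directions: control replicate 1 held the most let-7e-5p and the least miR-125a-5p, and heat replicate 1 the reverse. Pearson's r was -0.923 (exact permutation p = 0.0056, adjusted p = 0.017) and Spearman's rho was -0.829 (exact permutation p = 0.058, adjusted p = 0.088). Without those 2 libraries, the farthest from the median of let-7e-5p, r was -0.729 over 4 libraries (exact permutation adjusted p = 0.33), which did not pass. With any 1 library left out r stayed between -0.953 and -0.860, and its exact permutation adjusted p was 0.025 without control replicate 3 and 0.05 to 0.10 without any other single library, which did not pass. With library totals in place of TMM the relation over all 6 did not hold (r = -0.614, exact permutation adjusted p = 0.24), and with DESeq2 size factors r was -0.827 (exact permutation adjusted p = 0.075). let-7e-5p itself spanned only 40167 to 50734 CPM, and the TMM factors of the libraries ran from 0.942 to 1.05.

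miR-100a-5p and miR-125a-5p tended to be high in the same libraries. Pearson's r was 0.829 (exact permutation p = 0.043, adjusted p = 0.065) and Spearman's rho 0.886 (exact permutation p = 0.033, adjusted p = 0.088), which did not pass. As deviations from each temperature's mean, r was 0.884 (permutation adjusted p = 0.042). That p is approximate, since the deviations within a group are tied to each other through its mean. Without heat replicate 2 and control replicate 1, r was 0.701 over 4 libraries. let-7e-5p and miR-100a-5p had an r of -0.581 (exact permutation p = 0.23, adjusted p = 0.23) and a rho of -0.657 (exact permutation p = 0.18, adjusted p = 0.18), and r was -0.653 without control replicate 1 and heat replicate 1, -0.149 with library totals and -0.341 with DESeq2 size factors. Each library gives 1 point to all 3 relations, and values of a library share its scaling.

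**Figure D5:**
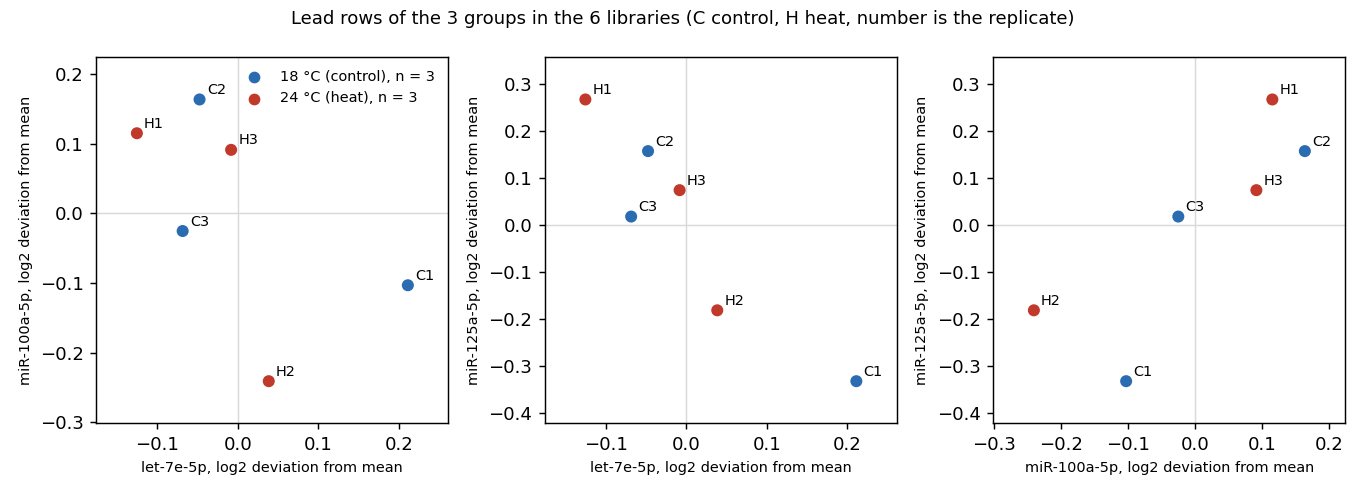
Deviation of each library from the mean over 6 libraries, in log2 TMM-scaled CPM, for the most abundant row of each group, plotted in pairs (let-7e-5p, miR-100a-5p and miR-125a-5p on the axes), blue at 18 °C and red at 24 °C. let-7e-5p and miR-125a-5p fall along a descending line (r = -0.923), and miR-100a-5p and miR-125a-5p along a rising one (r = 0.829).

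Other members gave a mixed picture, described here with no test and on the TMM scale only. Among the 7 let-7 rows with at least 1000 CPM, 16 of 21 pairs had a positive r, with a median of 0.482. The closest pair was let-7a-5p with let-7b-5p (r = 0.894), while let-7e-5p with let-7h-5p had an r of -0.250. Between these let-7 rows and the miR-125 rows the median r was -0.214 over 14 pairs. let-7e-5p ran against miR-125b-5p (r = -0.826) as well as against miR-125a-5p. With miR-125a-5p the other let-7 rows had an r from -0.375 (let-7i-5p) to 0.341 (let-7h-5p). Among them were let-7a-5p (-0.268), let-7g-5p (-0.214), let-7b-5p (-0.011) and let-7c-5p (0.146). miR-125a-5p and miR-125b-5p had an r of 0.814, but miR-100a-5p and miR-99-5p, the close relatives, had one of -0.423. miR-99-5p ran most clearly against let-7b-5p (r = -0.808). Over all 2211 pairs of the 67 annotated rows with at least 1000 CPM, r had a median of 0.005 and ran from -0.981 to 0.992. Of these pairs, 0.362% had an r of -0.923 or below and 3.03% one of 0.829 or above.

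Outside its own group, the abundant annotated row most like let-7e-5p over the 6 libraries was miR-30b-5p (r = 0.848), followed by miR-19a-3p (0.655) and miR-30c-5p (0.643). miR-100a-5p was most like miR-15d-5p (r = 0.948), miR-16a-5p (0.930) and miR-16b-5p (0.921). miR-125a-5p was most like miR-199a-3p (r = 0.921), miR-375-3p (0.883) and miR-100a-5p (0.829). These likenesses were the top of 60 to 65 candidates each and are given with no test. They were ranked on the TMM scale only. An r can move with the scaling, as that of let-7e-5p with miR-125a-5p did, from -0.923 to -0.614 with library totals.

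Related families were set beside the members. miR-10, of the same ancestral family as miR-99 and miR-100, had 5 tested rows, of which none passed, with a median log2 fold change of -0.16. miR-10a-5p, its main product, had 53880 ± 3237 CPM in the control fish, against 47710.1 ± 6628 CPM in the heat fish (SD, n = 3 each). miR-202-3p, whose sequence resembles let-7, was scarce and uneven, with 43.0 ± 37.9 CPM in the control fish against 9.197 ± 9.26 CPM in the heat fish, and did not pass (edgeR adjusted p = 0.63).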

How the data were processed

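Small RNA libraries were made from TRIzol-extracted head kidney RNA with a NEBNext small RNA kit, per the labels' protocols. The authors deposited whole-number read counts for 392 annotated and 989 predicted rows. The authors also deposited TPM values, which are each count as a share of its library total, with no length term. The submitters' processing notes name Bowtie, with its version, the genome build and the handling of reads that match more than 1 row not given there.

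The filter filterByExpr with a minimum count of 10 and a minimum total of 15 left 537 rows, which were scaled by TMM and tested with edgeR 4.0.16 (robust quasi-likelihood) in R 4.3.3, with Benjamini-Hochberg adjustment over all 537 and a threshold of 0.05. Standard errors come from dividing each log2 fold change by the root of its F statistic. Arm ratios, with 0.5 added per count, were tested with limma 3.58.1 over 79 hairpins whose arms carry identical names; the fit with numbered copies summed was added after seeing the data. Correlations used log2(CPM + 0.5) and all pairings of 6 libraries. Alternatives used other scalings, filters, limma, DESeq2 1.42.0, summed copies, a replicate block and each library left out. On simulated counts with 200 of 537 rows changed, the edgeR fit found 32.8% of 2-fold and 85.1% of 4-fold changes. In the real libraries 1 of 537 rows was called. The adjustment is stricter where few rows change, so these shares cannot be taken as the power to find a change in a member. The arm test found 10 of 10 ratios shifted 4-fold. That simulation gave every ratio the same spread and every 3p row the same count, above the 72 to 257 counts of let-7b-3p. It therefore gives no power for hairpins with a rare 3p row. No smaller shift of a ratio was simulated. The let-7b difference, 1.18 on the log2 scale, was under 4-fold, so this result gives no power for a difference of that size. All pairs of libraries differed by more than sampling noise (chi-square 144 to 432 per degree of freedom). The replicate is the fish.

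Members and lists were chosen with earlier results of these data known. Rows given per library were the 3 most abundant of each group and the 5 tested rows of smallest p. The arms of every member hairpin whose arm ratio was tested were given too, and let-7f-5p was added after its values were seen. Figures were drawn with matplotlib 3.10.9.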

Additional observations from a re-analysis of the deposited data

How the results depend on the processing

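No member was called higher or lower in any of the 17 alternative fits, and the smallest adjusted p of a member was 0.23 (let-7b-3p in DESeq2). Of 431 member fold changes computed in these fits, 34 changed sign, all from members at or under 0.10 in size. Over all rows, calls higher at 24 °C numbered 1, but 2 in DESeq2, 0 in the fit with the replicate block and 0 to 1 when a library was left out (0 without control replicate 1, control replicate 3 or heat replicate 2). Calls lower numbered 0, but 3 in DESeq2 and 0 to 1 without a library. Member hairpins called numbered 0, but 1 at a minimum of 50 counts per arm, where fewer hairpins were tested, 1 (let-7b) with copies summed, a choice made after seeing the data, where more were tested, and 0 with the replicate block. Of 77 member arm differences computed in these fits, 10 had the other sign. Libraries that share a number did not deviate alike (correlations -0.056, -0.18 and -0.15), and 0 of 6 lay closest to their own number in the other group. The correlation of let-7e-5p and miR-125a-5p was -0.614 with library totals, -0.827 with DESeq2 size factors, -0.729 without the 2 farthest libraries and -0.953 to -0.86 without a single library, and it kept its call only with deviations from group means (-0.918) and without control replicate 3. That of miR-100a-5p and miR-125a-5p was 0.884 as deviations from group means, past the threshold. For both pairs the permutation p of such deviations is only approximate. The cause of these changes in the calls was not tested. Over their alternatives, the differences in share moved by less than 1 SD between fish from the values with all libraries, with the other sign in 4 of 24 values. Rare rows limit the arm comparison: let-7b-3p rests on 72 to 257 counts per library.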
